A study of Mus musculus with 8 samples.

Results

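The 35 genes described here carry out, supply or control the oxidation of fatty acids and the making of ketone bodies in mouse liver. They were taken by gene symbol from a fixed list, with the condition of at least 10 normalized reads in 4 or more of the 8 libraries. All 35 met it, out of 14390 genes that did so and 24674 lines of the table with a symbol. Of the 35, 17 act in mitochondria, 4 in mitochondria and peroxisomes, 7 in peroxisomes and 1 (Bdh1) in ketone body synthesis, while 6 supply fatty acyl groups or regulate their use. A second grouping marks 13 of them as sensitive to PPARA, chosen from general knowledge of its targets. The rest were not shown to be insensitive to it.

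Liver RNA of 8 female mice was sequenced with a directional (strand-keeping) library kit. The 4 F2_outcross mice were wild type in genotype, and their mother's mother was Khdc3-null. The 4 WT mice are labelled wild type, and their genotype label names no ancestor. By these labels no animal of either group carried the deletion. The comparison asks whether the liver transcriptome differs with that grandmaternal genotype. The sources used here do not state strain, age, feeding state, litter, dam or hour of collection. Since the labels do not say whether the mice of a group came from separate litters, a p-value here weighs a difference only against the variation among these 8 animals. The labels call the cell type hepatocyte and the tissue liver.

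In hepatocytes, long-chain fatty acids enter mitochondria as carnitine esters and are shortened by repeated rounds of beta-oxidation, which feed acetyl-CoA into the citric acid cycle or into ketone bodies. Peroxisomes shorten very long and branched chains and pass the products on as carnitine esters. PPARA is a nuclear receptor that binds fatty acids and raises the transcription of many of these genes, most strongly in fasting.

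Libraries held 30998964 to 33289063 reads in F2_outcross and 28028650 to 35843972 in WT. Values below are normalized reads, meaning reads divided by each library's size factor, and 1 read was worth 0.867 to 0.975 normalized reads in F2_outcross and 0.779 to 1.04 in WT. Khdc3 itself, a gene of the oocyte, had 0 reads in 7 libraries and 1 read in the other one (WT replicate 1), under a floor of 3 reads. All 5 hepatocyte markers (Alb, Apoa1, Ttr, Apob, Tat) were abundant, with a summed level of 2889070 to 3646850 normalized reads in F2_outcross and 2838900 to 4120190 in WT. Markers of other liver cells were present too. The 5 Kupffer cell markers summed to 10020 to 14038 in F2_outcross and 11623 to 26410 in WT. In such bulk RNA, fewer cells of a type and less RNA per cell cannot be told apart.

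No gene of the 35 passed the test between the groups. With limma and adjustment over all 14390 genes, 0 of 35 had an adjusted p under 0.05, against 2.66% of all genes, and 0 passed with limma voom on recovered reads. At an unadjusted limma p under 0.05 there were 5 genes (Crot, Bdh1, Ppara, Ech1 and Fabp1), of which 1 had a positive and 4 a negative log2 fold change. That rate is below the 21.1% of all genes under the same limit. The 2 groups did not overlap for 1 gene, Crot, against 12.0% of all genes. The median log2 fold change (F2_outcross minus WT) of the 35 was -0.09, with 14 positive and 21 negative, beside -0.01 over all genes.

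By class, mitochondrial genes had a median log2 fold change of -0.10, genes of both organelles -0.12, peroxisomal genes 0.01, and supply and regulation genes 0.13, while Bdh1 stood at -0.43. The 13 PPARA-sensitive genes had a median of 0.02 and the other 22 had -0.10. Without F2_outcross replicate 4 that order turned, with a median of -0.21 for the 13 and -0.17 for the other 22. With 1 library left out in turn, medians ran from -0.17 to 0.032 for mitochondrial genes, -0.30 to 0.10 for genes of both organelles, -0.095 to 0.11 for peroxisomal genes and -0.061 to 0.26 for supply and regulation genes, so each of these took both signs, while Bdh1 ran from -0.54 to -0.36. These medians are descriptions without a test. The sign of the median over all 35 was not stable, since it became 0.057 without F2_outcross replicate 3 and 0.0035 without WT replicate 2. For 31 of the 35 genes the 95% interval of the fold change lay within 2-fold in either direction, and for 21 it lay within 1.5-fold. The 4 genes with wider intervals were Crot, Fabp1, Acot1 and Vnn1.

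**Figure D1:**
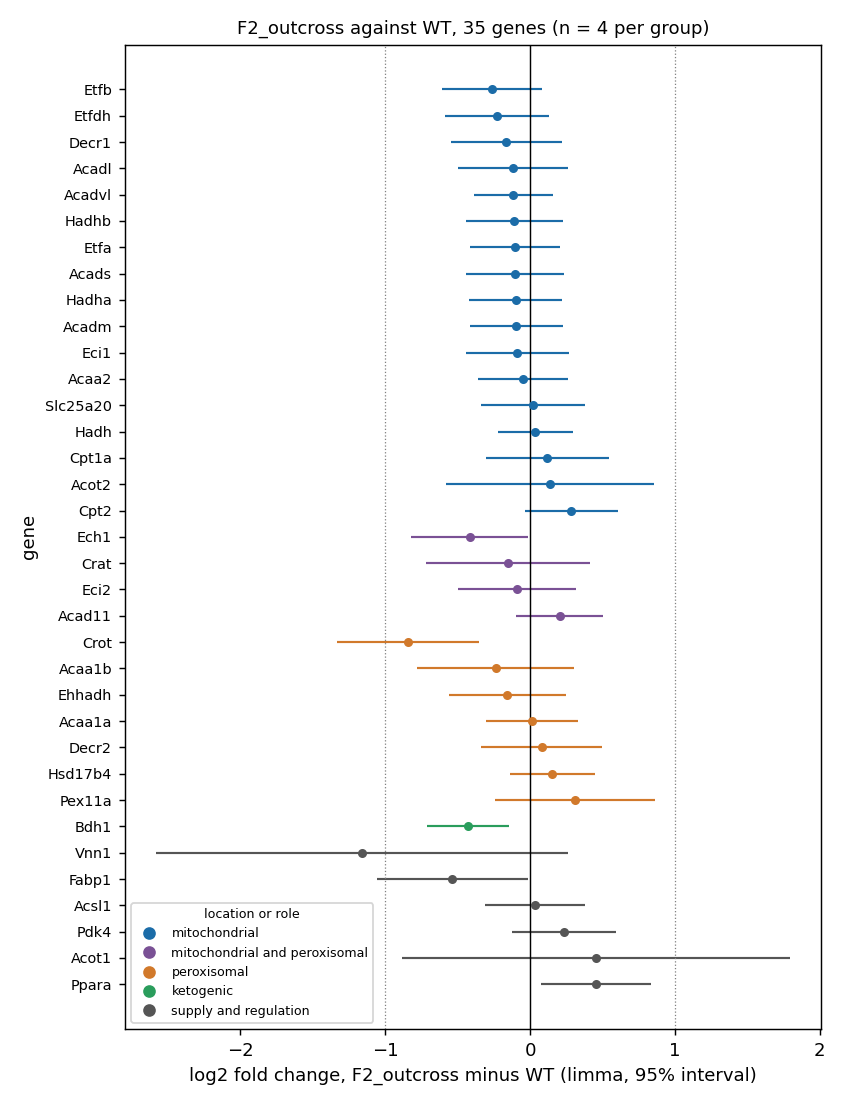
Log2 fold change of each of the 35 genes, F2_outcross minus WT (horizontal axis, log2 units), with its 95% interval from limma (n = 4 per group) and coloured by location or role. Dotted lines mark a change of 2-fold. Most intervals cross 0, and those of Crot, Bdh1, Ppara, Ech1 and Fabp1 do not.

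The carnitine shuttle carries acyl groups into mitochondria. Cpt1a, which forms the carnitine ester at the outer membrane and sets the pace of entry, had 8086, 6888, 6189 and 12612 normalized reads in F2_outcross replicates 1 to 4, against 6948, 8977, 7785 and 6418 in WT replicates 1 to 4. The groups overlapped fully, with F2_outcross replicate 4 above and replicate 3 below every WT library, and the log2 fold change was 0.12 ± 0.20 (moderated SE, adjusted p = 0.769). Cpt2, which releases the acyl group inside, averaged 5322 ± 1100 in F2_outcross and 4311 ± 505 in WT (SD, n = 4 each), with an adjusted p of 0.293, the smallest in the mitochondrial class. Slc25a20, the carrier that exchanges acylcarnitine for carnitine, averaged 3042 ± 773 in F2_outcross and 2935 ± 332 in WT (adjusted p = 0.957).

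Beta-oxidation proper runs inside mitochondria. Acadm, the medium-chain acyl-CoA dehydrogenase, had 9538, 10457, 7704 and 13054 normalized reads in the F2_outcross libraries, against 10446, 9944, 10631 and 11778 in the WT libraries. Here again F2_outcross replicate 4 was the highest and replicate 3 the lowest of all 8, and the log2 fold change was -0.09 ± 0.15 (adjusted p = 0.760). The long-chain and very-long-chain dehydrogenases Acadl and Acadvl, the short-chain Acads, the trifunctional protein subunits Hadha and Hadhb, the hydroxyacyl-CoA dehydrogenase Hadh, the isomerase Eci1 and the reductase Decr1 had log2 fold changes between -0.16 (Decr1) and 0.04 (Hadh). Acaa2, the thiolase of the last step, had 26327, 31088, 23329 and 29699 normalized reads in F2_outcross, against 25896, 34279, 27307 and 26801 in WT. Its WT replicate 2 stood apart above the other WT libraries, and the group means differed by a log2 fold change of -0.05 ± 0.14 (adjusted p = 0.877).

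Electrons from the acyl-CoA dehydrogenases pass through the flavoprotein of Etfa and Etfb to the oxidoreductase of Etfdh. Their log2 fold changes were -0.10 ± 0.14 for Etfa, -0.26 ± 0.16 for Etfb and -0.23 ± 0.16 for Etfdh, none past the threshold (adjusted p of 0.366 or more). For Etfb, 53.0% of the exonic length is shared with Gm45233 on the same strand, so its reads may have been split. Acadvl shares 42.9% of its exonic length with Dvl2 on the opposite strand, and the strand setting of the counting is not stated. Acot2, a mitochondrial acyl-CoA thioesterase, ranged from 57.2 to 225 normalized reads in F2_outcross and from 83.9 to 106 in WT (adjusted p = 0.847).

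Of the 4 genes whose products are found in mitochondria and peroxisomes, Ech1 came closest to the threshold. This dienoyl-CoA isomerase (chromosome 7, 28825217 to 28832247, GRCm38) had 5876, 7538, 4125 and 8346 normalized reads in F2_outcross, against 8189, 9316, 8144 and 7767 in WT. Replicates 1, 2 and 3 of F2_outcross were below all WT libraries and replicate 4 lay among them. The log2 fold change was -0.42 ± 0.19 (adjusted p = 0.223). Crat, the carnitine acetyltransferase, Eci2, a second isomerase, and Acad11, a dehydrogenase of long chains, had log2 fold changes of -0.15, -0.09 and 0.21, with adjusted p values of 0.428 or more.

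Crot had the smallest adjusted p of the 35. It encodes the peroxisomal carnitine octanoyltransferase, which loads shortened chains on carnitine for export, and lies on chromosome 5 (8966033 to 8997324, GRCm38). The F2_outcross libraries had 10487, 8511, 6934 and 17739 normalized reads, against 18848, 18312, 18137 and 18147 in WT. All 4 F2_outcross values were below all 4 WT values, but replicate 4 by a small margin, and the WT values lay within 1.04-fold of each other. The mean was 10918 ± 4774 in F2_outcross and 18361 ± 335 in WT (SD, n = 4 each), a level 1.79-fold higher in WT by the log2 fold change of -0.84 ± 0.23 (adjusted p = 0.0682). Without F2_outcross replicate 4 the log2 fold change was -1.11 and the adjusted p 0.0038, and over all 19 alternative settings the adjusted p ran between 0.0038 and 0.230.

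The other peroxisomal genes showed no such separation. Ehhadh, the bifunctional enzyme of the classical peroxisomal pathway, had 9755, 9416, 6925 and 11212 normalized reads in F2_outcross, against 7592, 9246, 12000 and 13086 in WT. WT spread as widely as F2_outcross for this gene, and the log2 fold change was -0.16 ± 0.19 (adjusted p = 0.674). Acaa1b, a peroxisomal thiolase, had 10909, 14690, 8466 and 16447 in F2_outcross, against 9256, 21096, 13879 and 15854 in WT (log2 fold change -0.24 ± 0.25, adjusted p = 0.631). Its near copy Acaa1a (96.6% identity over 1428 aligned transcript bases) was at a log2 fold change of 0.01 ± 0.15, and how reads shared by the pair were assigned is not given, so both values are uncertain. Hsd17b4, the second bifunctional enzyme, Decr2, a reductase, and Pex11a, which takes part in peroxisome division, had log2 fold changes of 0.16, 0.08 and 0.31 (adjusted p of 0.526 or more).

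Bdh1 makes 3-hydroxybutyrate from acetoacetate in mitochondria and lies on chromosome 16 (31422280 to 31458901, GRCm38). It had 7438, 8442, 7168 and 10534 normalized reads in F2_outcross, against 11874, 10437, 11535 and 10808 in WT. The groups overlapped only through F2_outcross replicate 4, which exceeded WT replicate 2, and the other 3 F2_outcross libraries were below all WT libraries. Means were 8395 ± 1527 in F2_outcross and 11163 ± 657 in WT (SD, n = 4 each), with a log2 fold change of -0.43 ± 0.13 (adjusted p = 0.0950). Without F2_outcross replicate 4 it was -0.54 with an adjusted p of 0.0377, and over the 19 alternatives the adjusted p ran between 0.0377 and 0.238.

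Ketone body genes outside the 35 were given by a list of 7, and 0 of 7 passed. Slc16a1, the monocarboxylate transporter that carries ketone bodies across the cell membrane, had 1370, 1576, 1139 and 1455 normalized reads in F2_outcross, against 2087, 1546, 1873 and 1753 in WT (log2 fold change -0.39 ± 0.13, adjusted p = 0.107). The groups overlapped only through F2_outcross replicate 2, which exceeded WT replicate 2.

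Ppara itself was the only 1 of the 5 genes with a positive fold change. It lies on chromosome 15 (85734983 to 85802819, GRCm38) and had 4318, 3377, 3657 and 5663 normalized reads in F2_outcross, against 2509, 3191, 3930 and 2706 in WT. The highest 2 libraries were both F2_outcross (replicates 4 and 1), and WT replicate 3 exceeded F2_outcross replicates 2 and 3. The log2 fold change was 0.46 ± 0.17 (adjusted p = 0.164), and the adjusted p stayed above the threshold in all 19 alternatives (0.131 to 0.460).

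**Figure D2:**
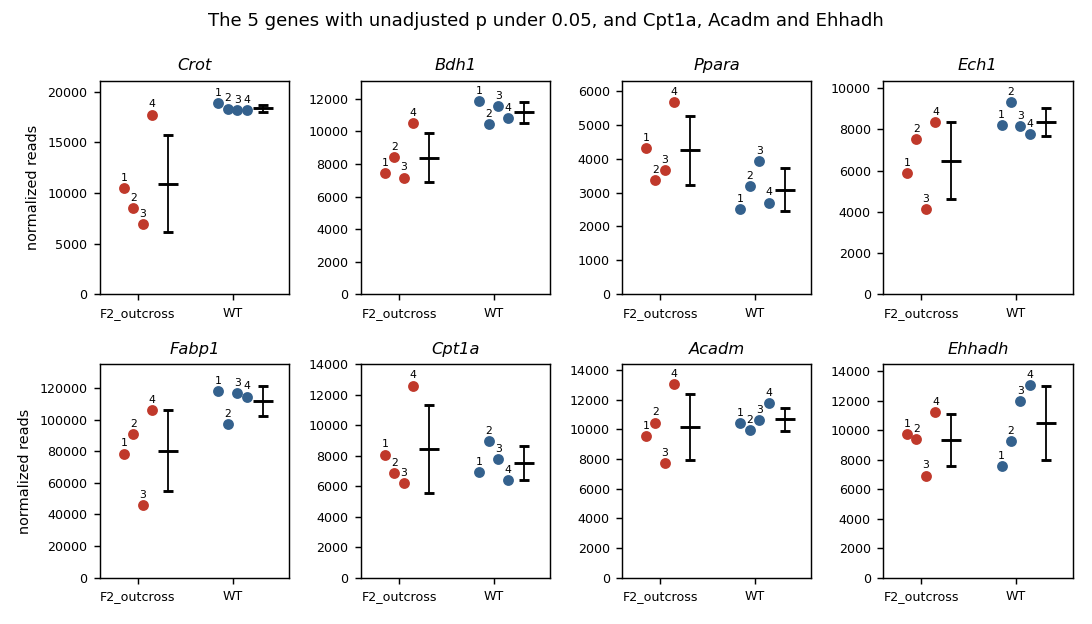
Normalized reads (vertical axes, from 0) of the 5 genes with an unadjusted limma p under 0.05 and of Cpt1a, Acadm and Ehhadh, by library. Numbers are replicates, and the black mark and bar beside each group give its mean and SD (n = 4). Crot separates the groups with F2_outcross replicate 4 close to the WT level, and replicate 4 is the highest F2_outcross library in every panel.

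Supply of fatty acyl groups rests on Fabp1, the liver fatty acid binding protein, and Acsl1, which activates fatty acids to CoA esters. Fabp1 (chromosome 6, 71199827 to 71205023, GRCm38) had 78471, 90760, 45834 and 106234 normalized reads in F2_outcross, against 117916, 97410, 116584 and 114595 in WT. F2_outcross replicate 3 was by far the lowest, and replicate 4 exceeded only WT replicate 2, which stood apart below the other WT libraries. The log2 fold change was -0.54 ± 0.24 (adjusted p = 0.225). Per kilobase of exon Fabp1 had the highest mean level of the 35, with 145253 normalized reads in F2_outcross and 201856 in WT, and Pdk4 had the lowest, with 49.3 in F2_outcross and 42.0 in WT.

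Pdk4, a kinase that shuts off pyruvate dehydrogenase and so spares glucose carbon, is a common readout of fasting. It had 202, 167, 140 and 184 normalized reads in F2_outcross, against 151, 161, 114 and 164 in WT. The groups overlapped, and the log2 fold change was 0.23 ± 0.17 (adjusted p = 0.452). Acsl1 averaged 21030 ± 4063 in F2_outcross and 20292 ± 2268 in WT (adjusted p = 0.920).

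The widest spread between animals was seen for Vnn1 and Acot1. Vnn1, a pantetheinase of the coenzyme A salvage route, had 247, 288, 39.9 and 812 normalized reads in F2_outcross, against 443, 429, 750 and 413 in WT. F2_outcross replicate 4 was 20.4-fold above replicate 3, with replicates 1 and 2 between them, while the WT libraries spanned 1.82-fold and replicate 3 stood apart above the other WT libraries. The log2 fold change was -1.16 ± 0.65 (adjusted p = 0.333). Acot1, a cytosolic acyl-CoA thioesterase, had 313, 402, 50.3 and 791 in F2_outcross, against 208, 267, 177 and 145 in WT. Replicate 4 was 15.7-fold above replicate 3, and the other 2 F2_outcross libraries were above all WT libraries. The log2 fold change of Acot1 was 0.45 ± 0.62 (adjusted p = 0.714). It was 1.25 without F2_outcross replicate 3 (adjusted p = 0.0475) and -0.067 without F2_outcross replicate 4 (adjusted p = 0.962). Over the 19 alternatives the adjusted p of Acot1 ran between 0.0475 and 0.962, and 1 of 19 passed. Acot1 and Acot2 are 93.8% identical over 1337 aligned transcript bases, so reads could have been shared between them.

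These examples belong to a pattern that ran through most of the 35 genes. F2_outcross replicate 3 was the lowest of the 8 libraries in 30 of 35 genes, beside 15.0% of all genes, and F2_outcross replicate 4 was the highest in 20 of 35, beside 13.9% of all genes. Both held in 16 of 35, beside 2.70% of all genes. The 5 genes in which replicate 3 was not the lowest were Cpt2, Hadh, Acad11, Ppara and Pdk4. Within F2_outcross alone, replicate 3 was lowest in 33 and replicate 4 highest in 31 genes, beside 30.4% and 27.7% of all genes. Replicate 4 was at least 2-fold above replicate 3 in 12 of 35, beside 2.22% of all genes. The pattern was noticed after the values were seen, and the genes of one library are not independent, so no test is attached to these counts.

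**Figure D3:**
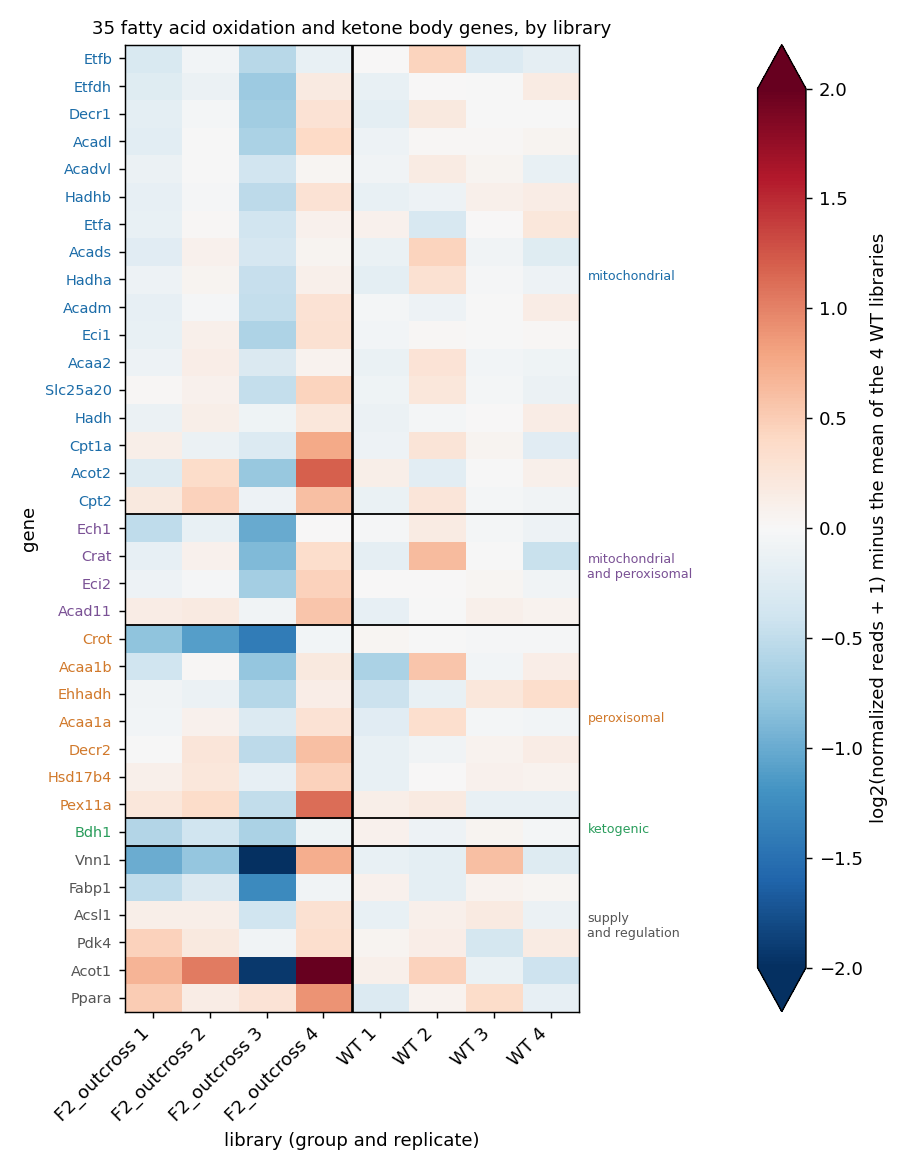
Log2(normalized reads + 1) of each gene in each library minus the mean of the 4 WT libraries (colour scale, log2 units, with values beyond 2 in either direction at the end colours), F2_outcross left and WT right of the line, with genes in rows by location or role. The column of F2_outcross replicate 3 is blue in nearly all rows and that of replicate 4 mostly red.

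In every class, F2_outcross replicate 3 lay below replicate 4 in its median deviation from the WT mean. In F2_outcross replicate 3, the median deviation from the WT mean on the log2 scale was -0.47 for mitochondrial genes, -0.79 for genes of both organelles, -0.52 for peroxisomal genes and -0.84 for supply and regulation genes. In replicate 4 the same medians were 0.28, 0.41, 0.29 and 0.53. Bdh1 deviated by -0.64 in replicate 3 and -0.08 in replicate 4. Replicates 1 and 2 were near the WT level, with medians over the 35 genes of -0.11 and 0.06. Over all 14390 genes the median deviation was -0.02 in replicate 3 and 0.0017 in replicate 4.

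The spread between animals was larger in F2_outcross in 28 of 35 genes (80.0%), beside 47.6% of all genes. The median SD on the log2 scale was 0.34 in F2_outcross and 0.16 in WT, beside 0.19 in F2_outcross and 0.21 in WT over all genes. Crot had the smallest WT spread of the 35, with an SD of 0.58 in F2_outcross and 0.03 in WT, and Eci1 and Eci2 followed, both with an SD of 0.04 in WT and of 0.40 (Eci1) and 0.47 (Eci2) in F2_outcross. The 7 genes with a larger spread in WT included Acaa1b, Ehhadh, Etfb and Acads. The number with a larger SD in F2_outcross was 23 of 35 without replicate 3, beside 43.1% of all genes. It was 27 of 35 without replicate 4, beside 43.7% of all genes. Without both it was 11 of 35, beside 38.9% of all genes. These 2 libraries were picked after the values were seen as the extremes of F2_outcross in these genes. Leaving them out thus lowers the F2_outcross SD by construction.

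**Figure D4:**
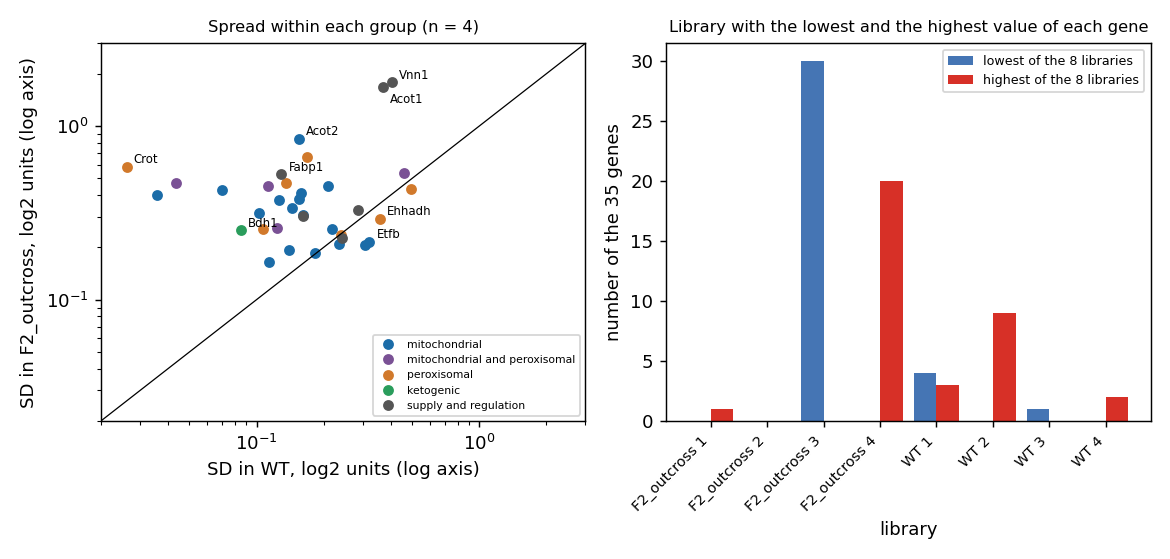
Left, SD over the 4 libraries of each group on the log2(normalized reads + 1) scale, F2_outcross on the vertical and WT on the horizontal axis (both log axes), 1 point per gene, with the line of equal SD. Right, the number of the 35 genes for which each library was the lowest or the highest of the 8: F2_outcross replicate 3 was the lowest in 30 and F2_outcross replicate 4 the highest in 20.

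The order of the libraries was also read within the PPARA-sensitive genes. Of these 13, F2_outcross replicate 3 was the lowest of 8 libraries in 12 and replicate 4 the highest in 8, and both held in 8 (61.5%), against 8 of the other 22 (36.4%). The median fold of replicate 4 over replicate 3 was 2.04 in the 13 and 1.55 in the other 22, beside 1.01 over all genes. Pex11a, for example, had 2248, 2464, 1355 and 4169 normalized reads in F2_outcross, against 2067, 2158, 1730 and 1729 in WT. The difference between the 13 and the 22 was not tested. The 22 were not shown to be insensitive to PPARA, so this does not contrast sensitive with insensitive genes.

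Genes outside the 35 that respond to PPARA were read from a second list of 13, and 0 of 13 passed the test. Replicate 4 of F2_outcross was the highest of 8 in 12 of them and replicate 3 the lowest in 8. The microsomal omega-hydroxylases Cyp4a10 and Cyp4a14, classical PPARA targets in rodents that were named after their values were seen, had the widest range. Cyp4a10 had 3766, 5094, 114 and 13749 normalized reads in F2_outcross, against 2736, 8615, 5270 and 4226 in WT (log2 fold change -1.03 ± 1.09, adjusted p = 0.632). Cyp4a14 had 389, 1279, 13.9 and 3716 in F2_outcross, against 706, 3955, 2689 and 963 in WT (log2 fold change -2.01 ± 1.28, adjusted p = 0.399). Replicate 4 thus stood 120-fold above replicate 3 for Cyp4a10 and 268-fold for Cyp4a14, inside 1 group. Cyp4a10 shares 97.2% identity with Cyp4a32 over 1530 aligned transcript bases, so the split of reads between them is uncertain. The 2 genes with the smallest p, both in this list and in that of peroxisomal genes, were Acot4 and Acot3, peroxisomal thioesterases, with log2 fold changes of 0.72 ± 0.18 (adjusted p = 0.0554) and 1.10 ± 0.32 (adjusted p = 0.0831). Acot4 had 5261, 4115, 4121 and 7791 normalized reads in F2_outcross, all above the 3039, 3434, 3236 and 2767 in WT. Acot3 had 3165, 2397, 1887 and 6198 in F2_outcross, against 1630, 1945, 1436 and 924 in WT, and overlapped through replicate 3 of F2_outcross and replicate 2 of WT.

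**Figure D5:**
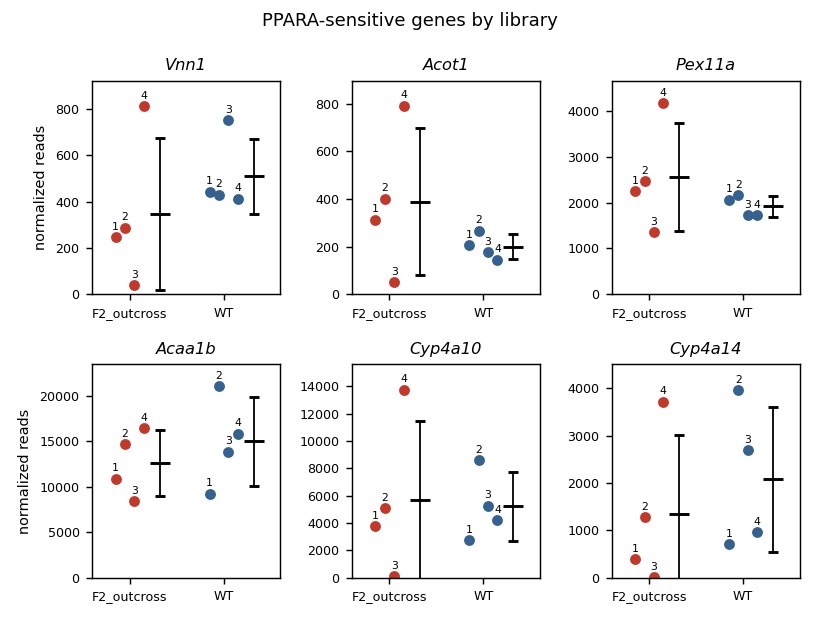
Normalized reads by library (vertical axes, from 0) of 6 PPARA-sensitive genes, 4 of the 35 and the cytochromes Cyp4a10 and Cyp4a14. Numbers are replicates, and the black mark and bar give the mean and SD of each group (n = 4), with bars that would pass below 0 stopped there. F2_outcross replicate 3 is the lowest of the 8 libraries in every panel, and replicate 4 is the highest in all but Acaa1b and Cyp4a14, where WT replicate 2 is.

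Promoters of the 35 genes were searched for the element PPARA binds with its partner RXR. It is a direct repeat of the half-site AGGTCA with 1 base between the copies. Whether PPARA plays a part in the order of the libraries was not tested. A match was allowed up to 2 mismatches in the 12 bases compared, on either strand, in windows of 250 bases before to 50 bases after the start site (RefSeq, GRCm38.p6). Windows were found for 30 of the 35 genes (32 windows), and 3 of 32 held a match, those of Fabp1, Etfa and Slc25a20, beside 3.87% of all 32544 windows. Fabp1 had 1 mismatch, a level of likeness seen in 0.559% of all windows. Its match starts 67 bases before the start site and reads AGGCCATAGGTCA on the strand opposite to the gene. The match of Etfa starts 77 bases before and reads AGGGCAAAGGTAA, also on the opposite strand. That of Slc25a20 starts 6 bases after the start site and reads AGGTGAAAGGTCG on the gene's strand (chr9:108662142-108662154). The 250 bases before the start site of Fabp1 (chr6:71199629-71199878, plus strand) and Etfa (chr9:55512244-55512493, minus strand) are shown because they place the match in its sequence, with the match in capitals, 5′ to 3′ on the gene's strand.
Fabp1: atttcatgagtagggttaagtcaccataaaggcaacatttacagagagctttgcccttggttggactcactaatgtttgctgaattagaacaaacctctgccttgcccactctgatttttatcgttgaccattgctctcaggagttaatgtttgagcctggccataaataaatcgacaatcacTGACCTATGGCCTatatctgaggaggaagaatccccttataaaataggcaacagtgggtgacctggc
Etfa: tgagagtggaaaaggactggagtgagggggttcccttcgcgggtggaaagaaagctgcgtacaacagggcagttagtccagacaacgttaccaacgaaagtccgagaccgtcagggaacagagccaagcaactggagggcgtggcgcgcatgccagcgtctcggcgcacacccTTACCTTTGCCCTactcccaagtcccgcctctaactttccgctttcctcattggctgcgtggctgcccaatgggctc
A match describes these letters and is not a measured binding site. Of the 3 genes, Fabp1 and Slc25a20 are in the PPARA-sensitive set and Etfa is not. F2_outcross replicate 3 was the lowest of the 8 libraries for all 3. It was so for 30 of the 35 genes, so this order does not set genes with a match apart.

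Other genes around the pathway were read from lists. Peroxisomal genes outside the 35 had 0 of 28 past the threshold, with a median log2 fold change of 0.05, and F2_outcross replicate 3 was the lowest library in 5 of 28, beside the 7 of 7 peroxisomal genes among the 35. Mitochondrial oxidation genes outside the 35 had 0 of 15 tested past it (Cpt1b, of 16 listed, was too low to test), and replicate 3 was the lowest in 1 of 15. The 2 with the smallest p there were Slc22a5, the cell's carnitine importer, at a log2 fold change of 0.75 ± 0.29 (adjusted p = 0.170), and Acot9, a mitochondrial thioesterase, at -0.41 ± 0.19 (adjusted p = 0.239). Slc22a5 had 801, 802, 463 and 1637 normalized reads in F2_outcross, against 440, 646, 459 and 467 in WT. Acot9 had 82.5, 93.0, 101 and 128 in F2_outcross, against 150, 99.0, 134 and 157 in WT. Both overlapped between the groups.

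Malonyl-CoA, which blocks CPT1, is made by the carboxylases Acaca and Acacb and removed by Mlycd, and 1 of these 3 passed the test, beside 2.66% of all genes. Acacb, the form at the mitochondrial surface, rose in F2_outcross, with 3141, 5508, 3383 and 3048 normalized reads, against 1295, 1739, 1301 and 1267 in WT. All F2_outcross values were above all WT values, and the order of replicates 3 and 4 seen above was absent. The log2 fold change was 1.40 ± 0.18 (adjusted p = 0.00285), and the call was lost in 1 of 19 alternatives, with no filter on low values (adjusted p = 0.0553). Acaca, the cytosolic form, had 1999, 2729, 2670 and 1274 in F2_outcross, against 1357, 2110, 1601 and 1699 in WT, and did not pass (adjusted p = 0.443). Here F2_outcross replicate 4 was the lowest of the 8 libraries.

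A list of 14 genes around PPARA held partners and coregulators, but also other nuclear receptors (Esrra, Ppard and Pparg). Of these 14 genes, 2 rose and 0 fell, beside 2.66% of all genes past the threshold. At an unadjusted limma p under 0.05 there were 9 of 14, with 8 positive and 1 negative log2 fold change, beside 21.1% of all genes. Med1, a Mediator subunit through which nuclear receptors reach the polymerase, had 1552, 1383, 1445 and 1618 normalized reads in F2_outcross, against 921, 1050, 1013 and 1100 in WT (log2 fold change 0.55 ± 0.10, adjusted p = 0.0167). Esrra, the estrogen-related receptor alpha, which drives many mitochondrial genes, had 856, 992, 1054 and 815 in F2_outcross, against 546, 724, 620 and 616 in WT (log2 fold change 0.57 ± 0.12, adjusted p = 0.0315). The groups did not overlap for either gene. The call of Med1 was lost in 4 of 19 alternatives and that of Esrra in 9 of 19. For Med1 these were the fits without F2_outcross replicate 1 (adjusted p = 0.0538), WT replicate 1 (0.0520), WT replicate 3 (0.0568) and F2_outcross replicates 3 and 4 (0.0999). For Esrra they were no filter (0.103), limma voom (0.0531) and the fits without F2_outcross replicates 1 (0.0661), 2 (0.0771) and 3 (0.0634) and WT replicates 1 (0.0962), 3 (0.0854) and 4 (0.0798), and without F2_outcross replicates 3 and 4 (0.116).

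Markers of other cell types were compared with the order of the libraries. The 5 adipocyte markers, none high enough to test, summed to 104 normalized reads in F2_outcross replicate 3, against 0 to 17.6 in the other F2_outcross libraries and 0.779 to 5.22 in WT, and Cidea was at 0 in all 8. The 5 striated muscle markers summed to 0.878 to 12.1 in F2_outcross and 1.56 to 6.26 in WT, with Ckm and Myh4 at 0 in all 8. B cell markers summed to 131 to 283 in F2_outcross and 304 to 665 in WT (1 of 5, Ighm, fell), T cell markers to 127 to 165 in F2_outcross and 154 to 390 in WT (0 of 5 passed), and neutrophil markers to 73.8 to 98.4 in F2_outcross and 111 to 486 in WT (1 of 3 tested, S100a8, fell). Cholangiocyte markers summed to 404 to 599 in F2_outcross and 245 to 338 in WT (1 of 4 tested, Spp1, rose). Endothelial and stellate cell markers had 0 of 5 past the threshold each. Kupffer cell markers also had 0 of 5 past it, but all 5 had an unadjusted limma p under 0.05 and log2 fold changes from -0.99 (Timd4) to -0.54 (Clec4f). Red cell markers summed to 6448 to 16989 in F2_outcross and 9841 to 24225 in WT, and 0 of 5 passed, with all 5 log2 fold changes negative. Of the hepatocyte markers, Apoa1 had 115557 normalized reads in F2_outcross replicate 3, against 160122 to 259484 in WT, and Ttr had 124554 there, against 131745 to 180019 in WT, the lowest of the 8 libraries for both. In the same library Alb and Apob lay within their WT ranges, Apob with 125510 against 107551 to 134199. Tat had 64121 there, above the 27292 to 52224 of WT. The hepatocyte sum of that library (2889070, of which Alb made up 2459330) lay within the WT range. The part of these differences in the values of the 35 genes was not tested.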

How the data were processed

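RNA was sequenced from the livers of 4 F2_outcross and 4 WT female mice, 1 library per animal, after a lipid-tissue RNA kit and a directional library preparation (per the labels' protocols). Tools named in the submitters' processing notes are cutadapt, HISAT2 and DESeq2, with the build GRCm38, without versions or roles. How reads were counted, with which annotation and strand setting, is not given in the sources used here. The deposited table holds log2 values that the authors made from normalized reads, and its lowest value (-3.32) is log2 of 0.1. After subtracting 0.1 from the antilog, 100% of values lay within 0.001 of a whole multiple of 1 step per library, which gave the whole reads (28028650 to 35843972 per library). Lines without a symbol (395 of 25069) held 0.611% to 1.22% of the reads and were left out.

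Values were taken back to normalized reads and analysed as log2(value + 1), which understates the fold changes of low genes. Genes with at least 10 normalized reads in 4 or more libraries (14390) were tested with limma 3.58.1 in R 4.3.3 (eBayes with trend, two-sided, Benjamini-Hochberg adjustment over all tested genes, threshold 0.05), with group as the only term. All p-values come from this fit except where a different setting stands beside them. Errors of log2 fold changes are moderated SEs. Each sample title is a number whose meaning is not stated, and those of WT all lie above those of F2_outcross. Replicates were numbered in accession order. The fit was tested on simulated data. Alternatives were other pseudocounts, filters and scalings, robust moderation, limma voom on recovered reads, and leaving out libraries.

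The genes and lists were chosen with earlier results of these data known. Values in every library are given for genes with an unadjusted p under 0.05 or groups that do not overlap, for Ppara, Cpt1a, Acadm, Ehhadh, Acaa1b, Bdh1 and Pdk4, and for genes with a library far from the rest of its group. Of the other pathway lists, genes past the threshold and the 2 smallest p of each list are named, except where an item is not reported here. Acot1, Pex11a, Cyp4a10, Cyp4a14, Angptl4, Plin2 and Fgf21 were chosen after their values were seen. Gene positions and exonic lengths are from GENCODE M21 (GRCm38), and promoter windows from RefSeq (GRCm38.p6).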

Additional observations from a re-analysis of the deposited data

Results flagged for a closer look

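In 6 of 94 groups of 4 libraries, 1 library stood far from the other 3, with a gap to its nearest neighbour that took more of the group's range than Dixon's 95% critical value allows. Chance gives about 1 such group in 20. WT replicate 2 did so in 4 of the 6. Acaa2 had 34279 normalized reads there, against 25896 to 27307 in the other WT libraries (gap over range 0.832). Fabp1 had 97410, against 114595 to 117916 (0.838). Acacb had 1739, against 1267 to 1301 (0.928), and Slc22a5 had 646, against 440 to 467 (0.871). Acacb in F2_outcross replicate 2 had 5508, against 3048 to 3383 in the other F2_outcross libraries (0.864). Vnn1 in WT replicate 3 had 750, against 413 to 443 (0.91). None of these involves F2_outcross replicate 3 or 4. The ratio divides by the full range, so libraries at opposite ends of a group hide each other. The lack of a flag therefore does not show that replicates 3 and 4 lay near the others.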

How the results depend on the processing

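No paired analysis was possible because the labels give no pairing between animals of the groups. The libraries were numbered in accession order. The count of genes past the threshold (383) was 122 with no filter, 248 with limma voom and 115 without F2_outcross replicates 3 and 4. Leaving out 1 library gave 111 to 1073: 142, 111, 346 and 279 without F2_outcross replicates 1 to 4, and 131, 1073, 120 and 131 without WT replicates 1 to 4. Of the 35 genes, 0 passed except with quantile scaling (2, Crot and Bdh1), without F2_outcross replicates 3 and 4 (1, Crot) and with 1 library left out (0 to 2: Crot and Bdh1 without F2_outcross replicate 4, Acot1 without F2_outcross replicate 3). Pathway and marker genes past the threshold (6) were 1 with no filter, 1 without F2_outcross replicates 3 and 4, and 1 to 22 with 1 library left out, the 22 without WT replicate 2. The count of genes with a larger SD in F2_outcross (28) was 11 without F2_outcross replicates 3 and 4 and 23 to 32 with 1 library left out. Medians over the 35 ran between -0.17 and 0.057 with 1 library left out. Signs turned as follows: upper quartile scaling gave Slc25a20 -0.016, Acaa1a -0.026 and Acsl1 -0.0018; quantile scaling gave Slc25a20 -0.011, Hadh -0.025, Acaa1a -0.012 and Acsl1 -0.084; limma voom gave Acaa1a -0.0073; and leaving out F2_outcross replicates 3 and 4 gave Cpt1a -0.0017 and Acaa2 0.011. With 1 library left out, log2 fold changes that turned ran from -0.092 to 0.25 for Cpt1a, -0.12 to 0.19 for Slc25a20, -0.22 to 0.032 for Acadm, -0.29 to 0.057 for Acadl, -0.18 to 0.046 for Acads, -0.17 to 0.020 for Hadha, -0.24 to 0.033 for Hadhb, -0.027 to 0.088 for Hadh, -0.11 to 0.042 for Acaa2, -0.22 to 0.089 for Eci1, -0.31 to 0.017 for Decr1, -0.21 to 0.44 for Acot2, -0.32 to 0.094 for Crat, -0.27 to 0.11 for Eci2, -0.081 to 0.12 for Acaa1a, -0.095 to 0.28 for Decr2, -0.055 to 0.18 for Acsl1, -0.067 to 1.25 for Acot1 and -1.88 to 0.42 for Cyp4a10. The cause of these shifts was not tested. All of the 35 genes except Vnn1, Acot1, Acot2 and Pdk4 had 614 or more normalized reads in each library.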

Other observations

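Other PPARA-sensitive genes outside the 35, named here after their values were seen, ranked F2_outcross replicates 3 and 4 at opposite ends of all 8 libraries. Angptl4, a secreted inhibitor of lipoprotein lipase, had 1372, 1948, 911 and 3755 normalized reads in F2_outcross replicates 1 to 4, against 1604, 1707, 1151 and 991 in WT replicates 1 to 4. Plin2, a lipid droplet coat protein, had 5439, 7006, 4415 and 14075 in F2_outcross, against 6859, 9556, 6090 and 5625 in WT. Fgf21, a hormone the liver releases in fasting, had 14.1, 8.63, 5.20 and 36.1 in F2_outcross, against 19.5, 13.1, 16.7 and 13.3 in WT, levels at which single reads weigh on the value. None of these passed the test, and WT values lay between the F2_outcross extremes for all 3 genes.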
